A study of Mus musculus with 6 samples.

Results

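The collagen chain genes are the genes whose mouse symbols have the form Col, a number, a and a number, such as Col1a1 or Col23a1. The rule found 44 genes with 60 RefSeq transcripts among 24809 genes in the table. The cells were C2C12, an immortalized mouse myoblast line, and RNA sequencing gave the transcript levels. The 2 groups were control cells (n = 3) and cells that overexpress Msx1 (n = 3), whose homeodomain protein is known to restrain myogenic differentiation. The deposited columns of the control group are headed as a vector, and the labels do not say how Msx1 was introduced, which clone or pool of cells was used, or at what stage the cells were harvested. Whether replicates were separate cultures is not labelled either, and the p-values therefore rest on a spread between samples that may be technical.

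Collagens are matrix proteins built from 3 alpha chains wound into a triple helix, in which glycine fills 1 position of each 3 residues. Fibrillar collagens form the banded fibrils of connective tissue, type IV chains form the sheet-like network of basement membranes, and FACITs (fibril-associated collagens with interrupted triple helices) sit on fibril surfaces. Transmembrane collagens are anchored in the plasma membrane and can be shed, and type VI chains form beaded microfibrils around cells. In skeletal muscle, type I and III chains make up the connective tissue, while type IV and VI chains surround the muscle fibre.

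Levels are FPKM, fragment counts scaled to transcript length and library size, summed per gene, so chains can be compared per length. A change is the Msx1 mean minus the control mean of log2(FPKM + 1), which understates the change of low genes. It was tested with limma and called at a Benjamini-Hochberg adjusted p under 0.05 over the 12371 genes that averaged 0.5 FPKM or more. Folds are ratios of group means without a pseudocount.

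The glycine repeat was visible in the coding sequence of every member, which is why 1 stretch from each of 5 chains is shown. Each stretch holds 20 codons from a run of the repeat, read from GENCODE transcripts of GRCm38, and capitals mark the glycine codons (GGN), 1 in each 3 codons. They start at codon 97 of Col1a2, 43 of Col4a1, 256 of Col6a1, 1513 of Col14a1 and 110 of Col23a1.
Col1a2: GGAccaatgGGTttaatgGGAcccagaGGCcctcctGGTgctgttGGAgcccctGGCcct
Col4a1: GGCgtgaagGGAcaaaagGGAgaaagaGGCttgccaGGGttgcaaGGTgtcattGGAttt
Col6a1: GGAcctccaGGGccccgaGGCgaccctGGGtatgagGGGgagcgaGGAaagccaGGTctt
Col14a1: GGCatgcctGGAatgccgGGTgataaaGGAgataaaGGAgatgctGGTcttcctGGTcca
Col23a1: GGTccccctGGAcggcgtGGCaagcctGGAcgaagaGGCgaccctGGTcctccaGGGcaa

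All 44 members had at least 1 run of 5 or more such triplets of codons. The length of the longest unbroken run separated the fibrillar chains from the others. It was 216 to 344 triplets in the 11 fibrillar chains (median 338), against 23 to 113 in all other members. The 6 type IV chains had longest runs of 39 to 66 triplets but held 75.2% to 79.5% of their codons in such runs, split over 22 to 27 runs. In Col23a1, 69.4% of 532 codons lay in 5 runs, the longest of 43 triplets. The FACIT chains Col12a1 and Col14a1 and the type VI chain Col6a3 held only 8.19%, 14.0% and 10.1% of their codons in runs. These are long chains made mostly of other domains.

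Msx1 itself differed as labelled and read 7.99, 7.13 and 7.54 FPKM in control and 1004, 943.7 and 912 FPKM in Msx1 cells. All 8 myoblast markers averaged above 5 FPKM over the 6 libraries, with a summed level of 279 to 288 FPKM in control and 275 to 281 FPKM in Msx1 libraries. Of these, Pax7 and Ncam1 rose and Myf5, Des and Chrna1 fell. Myf5 fell from a mean of 9.01 to 1.64 FPKM. Des, with means of 140 and 116 FPKM, was the largest part of the myoblast sum. The 8 fibroblast markers summed to 117 to 130 FPKM in control and 360 to 394 FPKM in Msx1 libraries. Of the 7 tested, 6 rose and Pdgfra fell, while Thy1 was near 0 (group means 0.027 and 0.040 FPKM). The 6 include Dpt, whose control mean of 0.436 FPKM lay under the minimum for testing. It was tested only through its Msx1 level (mean 44.3 FPKM). The 8 myotube markers summed to 10.7 to 14.2 and 50.5 to 59.4 FPKM, with 5 of 5 tested higher. Myh8 was listed at 0 in 4 libraries. Ckm, not tested, averaged 0.211 FPKM in control and 0.110 FPKM in Msx1 libraries, with overlapping groups. Of all genes tested, 22% were called higher and 32.4% lower. The 8 osteoblast markers summed to 861 to 1142 and 457 to 530 FPKM, with 3 of 5 tested higher and 2 lower, and Ibsp was listed at 0 in all 6 libraries. Spp1 made up most of that sum and fell from a mean of 978 to 402 FPKM. Without it, a sum added after its values were seen, the other 7 markers summed to 19.9 to 22.4 FPKM in control libraries. In Msx1 libraries they summed to 82.9 to 87.4 FPKM, mostly Alpl, which rose from a mean of 0.609 to 62.3 FPKM. Phex, the other marker called lower, fell from 2.44 to 0.112 FPKM, and Dmp1, not tested, averaged 0.288 and 0.150 FPKM. Phex passed the minimum only through its control libraries. Markers of 4 further cell types, 8 each, were mostly near 0. Leukocyte markers summed to 12.04 to 14.7 and 21.4 to 25.8 FPKM, mostly Lyz2, with Ptprc at 0 in all 6 libraries. Epithelial markers summed to 15.6 to 19.7 and 9.49 to 11.1 FPKM, mostly Krt14, with Epcam at 0 in all. Endothelial markers summed to 2.30 to 3.02 and 1.13 to 1.99 FPKM, with Esam at 0 in all, and chondrocyte markers to 23.2 to 23.5 and 22.2 to 25.0 FPKM, mostly Sox9, with Snorc at 0 in all. The part of these shifts in the collagen results was not tested. In bulk RNA, more cells of a type and more RNA per cell cannot be told apart.

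Of the 44 chains, 24 passed the minimum for testing, 10 of which rose, 9 fell and 5 were not called. In all, 79.2% of the tested chains were called, against 54.4% of all genes tested. Higher calls were 41.7% of the tested chains against 22% of all genes, and lower calls 37.5% against 32.4%. With each of 4 other scalings 11 chains rose and 8 fell, while the higher share of all called genes went from 40.4% to between 45.8% and 55.7%. Changes of at least 1 on the log2 scale were called in 7 chains (29.2%, against 7.53% of all genes). The control and Msx1 libraries did not overlap for 11 chains that were higher and 10 that were lower, against 62.3% of all genes, 25.5% in the higher and 36.8% in the lower direction. The median change of the tested chains was 0.03, against -0.07 for all genes. By class, 7 of 9 fibrillar chains fell and 1 rose. Of the 3 type IV chains tested, 2 rose and 1 fell, 3 of 4 FACIT chains rose, and the single transmembrane chain tested rose. In the remaining class, 3 of 7 rose and 1 fell. The counts of higher chains, of changes of at least 1 and of FACIT chains include Col9a3. Its control mean of 0.442 FPKM lay under the minimum, so it was tested only through its Msx1 level. Its call is therefore not independent of the filter, which was the same for all genes.

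**Figure D1:**
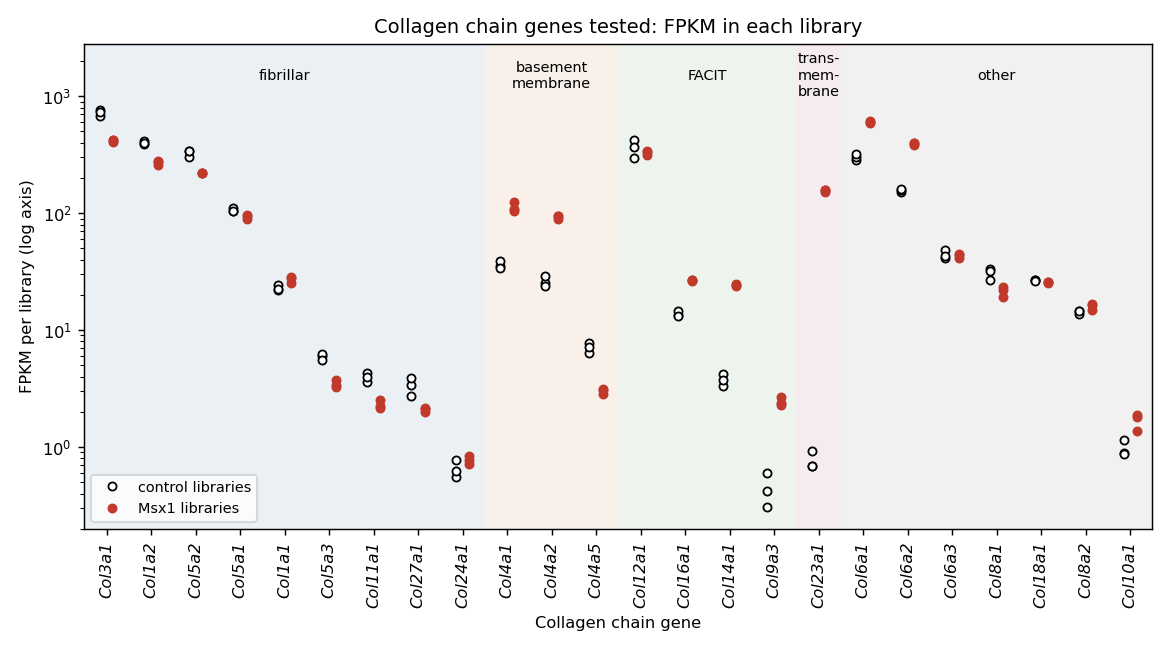
FPKM of the 24 tested collagen chain genes (vertical log axis) in each of 3 control libraries (open points) and 3 Msx1 libraries (filled points), ordered by class and by control level. The Msx1 points of Col23a1 lie between 151 and 157 FPKM while its control points lie below 1 FPKM, and most fibrillar chains show lower Msx1 points.

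Summed over the 44 chains, collagen transcripts reached 2435, 2771 and 2657 FPKM in control replicates 1 to 3 and 2924, 2921 and 2811 FPKM in the Msx1 libraries. The groups did not overlap, but the difference was small, 0.14 on the log2 scale. With 3 against 3 libraries no exact permutation p can lie under 0.1, the value found here (two-sided). Without Col23a1, a subset chosen after its values were seen, the sums overlapped (2435 to 2771 FPKM in control, 2654 to 2774 FPKM in Msx1; exact permutation p = 0.5). Without control replicate 1 the difference of all 44 chains was 0.09, and under 3 other scalings it was 0.22 to 0.26.

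Fibrillar chains held 60.8% ± 0.844 of collagen FPKM in control and 36.0% ± 0.118 in Msx1 libraries (SD, n = 3 each). Chains of type VI (Col6a1 to Col6a3) went from 19.2% ± 0.737 to 35.9% ± 0.325, and basement membrane chains from 2.65% ± 0.167 to 7.21% ± 0.331. Transmembrane chains went from 0.049% ± 0.007 to 5.395% ± 0.22, nearly all of it Col23a1. Col1a1 made up only 0.870% and 0.941% of collagen FPKM. Whether upstream counting or annotation sets that low level was not tested, and the fibrillar share and the other shares carry this limit. The FACIT share overlapped between groups, at 14.5% ± 1.53 and 13.2% ± 0.193. The fibrillar, type VI, basement membrane and transmembrane shares did not overlap between groups (exact permutation p = 0.1 each). The order of the chains changed as well: Col3a1 had the highest level in control and Col6a1 in Msx1 cells, and Col23a1 went from rank 22 to rank 7 of 44.

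**Figure D2:**
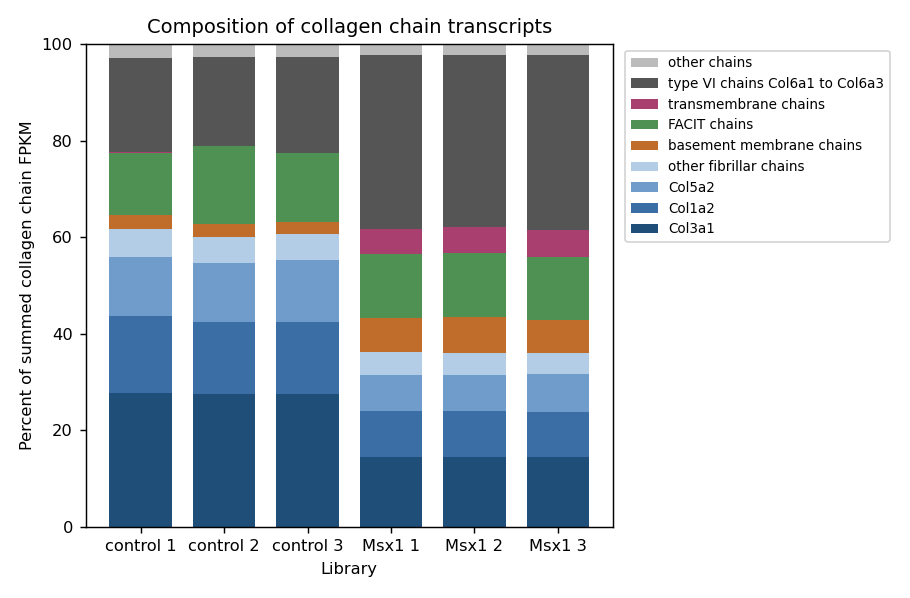
Share of summed collagen chain FPKM (percent, vertical axis) held by chains and classes in each of the 6 libraries, each bar summing to the whole. Fibrillar chains (blue) take about 60.8% of the bar in control and 36.0% in Msx1 libraries, and the type VI block grows from 19.2% to 35.9%.

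Col3a1, which makes the fine fibrils of extensible tissue, was the most abundant chain in control cells. It read 674, 765 and 732 FPKM in control and 420.4, 423 and 408 FPKM in Msx1 libraries. All Msx1 values were below all control values, and the level fell by 0.79 on the log2 scale (SE 0.07, adjusted p = 3.86e-05), 1.73-fold. Col1a2, the alpha-2 chain of type I collagen, read 387, 411 and 395 FPKM in control and 282, 275 and 258 FPKM in Msx1 libraries, again without overlap (log2 change -0.55, SE 0.06, adjusted p = 1.41e-04). Col1a1, the alpha-1 chain of the same molecule, went the other way at a far lower level, which carries the limit given above. It read 21.9, 24.2 and 22.3 FPKM in control and 28.5, 27.9 and 25.1 FPKM in Msx1 libraries (log2 change 0.24, SE 0.07, adjusted p = 0.0153). That call is marginal, since it was lost without control replicate 3 (adjusted p = 0.0539), without Msx1 replicate 1 (0.0643), without Msx1 replicate 2 (0.0589) and without a filter on low values (0.0586).

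Type V chains, which nucleate fibrils and set their diameter, were all lower. Col5a2 read 302, 338 and 343 FPKM in control and 219.9, 219.5 and 222 FPKM in Msx1 libraries. The 2 groups were far apart relative to their spread (log2 change -0.57, SE 0.06, adjusted p = 1.74e-04). Col5a3 read 5.96, 6.26 and 5.50 FPKM in control and 3.77, 3.37 and 3.27 FPKM in Msx1 libraries (log2 change -0.63, SE 0.07, adjusted p = 2.23e-04). Col5a1 moved least, from 105, 112 and 104 FPKM to 96.8, 94.1 and 89.2 FPKM (log2 change -0.19, SE 0.06, adjusted p = 0.019). Its call was lost under all 4 other scalings of the libraries (adjusted p from 0.118 to 0.37), without Msx1 replicate 2 (0.058) and without Msx1 replicate 3 (0.0733). The direction stayed lower in each of these.

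The other fibrillar chains tested were low. Col11a1, a cartilage-type chain that assembles with type V chains in other tissues, fell from 3.95 ± 0.332 to 2.31 ± 0.202 FPKM (log2 change -0.58, adjusted p = 5.36e-04, n = 3 each). Col27a1 fell from 3.31 ± 0.577 to 2.08 ± 0.091 FPKM (log2 change -0.48, adjusted p = 0.00523). Col24a1, at 0.649 ± 0.113 and 0.775 ± 0.062 FPKM, was not called (adjusted p = 0.296). Col2a1 and Col11a2, known from cartilage, averaged 0.217 and 0.163 FPKM and were not tested.

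**Figure D3:**
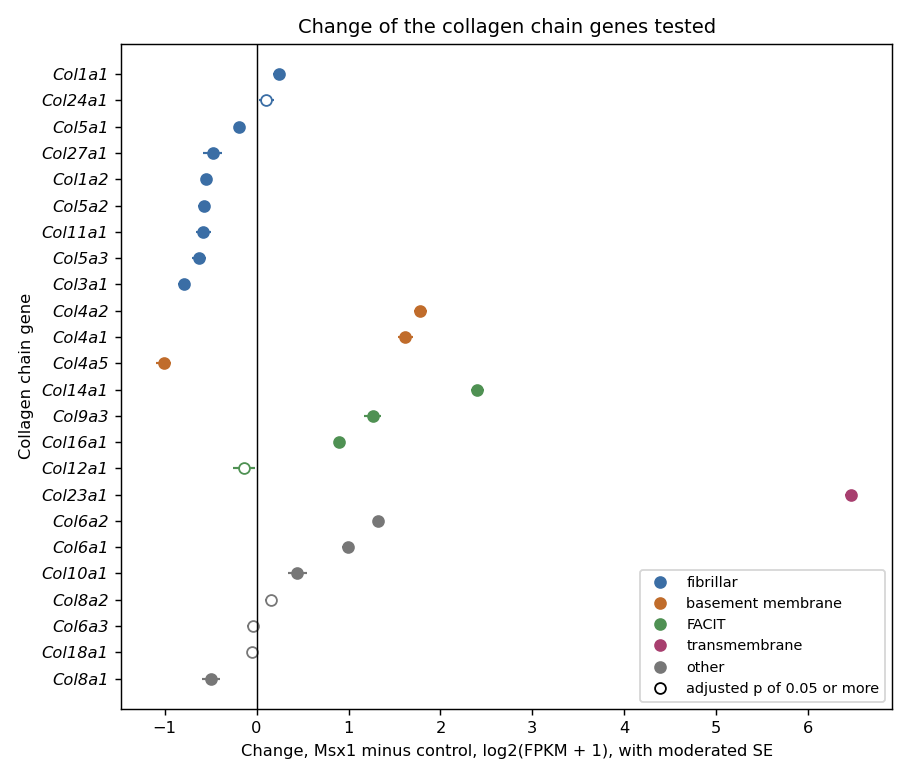
Change of the 24 tested collagen chain genes (horizontal axis, Msx1 minus control, log2(FPKM + 1)) with the moderated standard error as bars, coloured by class, and open points for genes that were not called. Col23a1 lies at 6.47, the fibrillar chains other than Col1a1 and Col24a1 lie left of 0, and Col4a5 lies opposite to Col4a1 and Col4a2.

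Basement membrane chains split. Col4a1 and Col4a2 form the common type IV network of nearly all basement membranes. Col4a1 read 35.4, 38.7 and 34.0 FPKM in control and 109.6, 125 and 105 FPKM in Msx1 libraries, 3.13-fold higher (log2 change 1.62, SE 0.08, adjusted p = 1.61e-06). Col4a2 read 25.5, 28.8 and 24.0 FPKM in control and 93.8, 93.9 and 88.4 FPKM in Msx1 libraries, 3.53-fold higher (log2 change 1.78, SE 0.07, adjusted p = 6.40e-07). Col4a5, a chain of the specialized networks of kidney and smooth muscle, moved in the opposite direction. It read 6.33, 7.80 and 7.13 FPKM in control and 2.86, 3.11 and 3.05 FPKM in Msx1 libraries (log2 change -1.01, SE 0.08, adjusted p = 2.44e-05), so its groups were apart in the lower direction. Its partner Col4a6 was below the minimum for testing, at 0.291, 0.203 and 0.266 FPKM in control and 0.034, 0.013 and 0.007 FPKM in Msx1 libraries. Col4a3 and Col4a4 stayed below 0.02 FPKM in both group means.

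The transmembrane chain Col23a1 had the largest change of the 24 tested chains. It read 0.689, 0.931 and 0.684 FPKM in control and 151, 157 and 157 FPKM in Msx1 libraries. The groups were 202-fold apart (log2 change 6.47, SE 0.07, adjusted p = 1.87e-09). Col13a1, a transmembrane collagen of the neuromuscular junction, was listed at 0 in all 3 control libraries but had 0.043, 0.182 and 0.169 FPKM with Msx1. Col17a1, the hemidesmosomal collagen, was at 0.473 ± 0.097 and 0.328 ± 0.0009 FPKM, and Col25a1 at 0.042 ± 0.019 and 0.017 ± 0.01 FPKM. These 3 chains were not tested. Without Col23a1 the transmembrane chains summed to 0.515 ± 0.11 FPKM in control and 0.476 ± 0.069 FPKM in Msx1 libraries, values that overlapped.

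Of the FACIT chains, Col14a1, which binds fibril surfaces and is known from dermis and tendon, rose most. It read 3.35, 4.20 and 3.75 FPKM in control and 24.6, 24.1 and 23.7 FPKM in Msx1 libraries, 6.41-fold higher (log2 change 2.40, SE 0.07, adjusted p = 1.68e-07). Col16a1 read 13.5, 14.5 and 13.3 FPKM in control and 26.6, 26.8 and 26.2 FPKM in Msx1 libraries (log2 change 0.90, SE 0.05, adjusted p = 4.20e-06). Col9a3, a chain of the cartilage FACIT type IX, read 0.417, 0.600 and 0.309 FPKM in control against 2.30, 2.67 and 2.38 FPKM in Msx1 libraries (log2 change 1.26, SE 0.09, adjusted p = 1.73e-05). It passed the minimum for testing only through its Msx1 libraries, so its call carries that limit. Its partner Col9a1 was listed at 0 in every library, and Col9a2 at 0.033 ± 0.005 FPKM in control and 0 in the Msx1 libraries.

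Col12a1, an abundant FACIT of muscle and tendon connective tissue, did not pass the test. It read 299, 426 and 366 FPKM in control and 338, 334 and 313 FPKM in Msx1 libraries (log2 change -0.13, SE 0.12, adjusted p = 0.375). The Msx1 values lay inside the control range. Without control replicate 1, its lowest control library, the change was -0.27 (adjusted p = 0.0205), and with sample weights it was -0.15 (adjusted p = 0.0454). Col22a1, a collagen of the myotendinous junction, was at 0.127 ± 0.086 and 0.417 ± 0.042 FPKM and was not tested. Col19a1 and Col20a1 stayed below 0.1 FPKM in both group means. Col21a1, which the class list also named, could not be analysed, since no transcript row was mapped to that symbol.

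Type VI chains did not move as one. Col6a1 read 283, 304 and 319 FPKM in control and 612, 599 and 594 FPKM in Msx1 libraries (log2 change 1.00, SE 0.06, adjusted p = 7.61e-06). Col6a2 read 152, 157 and 161 FPKM in control and 395, 395 and 382 FPKM in Msx1 libraries (log2 change 1.32, SE 0.05, adjusted p = 5.92e-07). Col6a3, the long chain that completes the type VI trimer, read 41.5, 48.2 and 43.4 FPKM in control and 44.4, 44.0 and 41.0 FPKM in Msx1 libraries. Its groups overlapped and it was not called (log2 change -0.04, SE 0.07, adjusted p = 0.657). The sign of this small change turned positive under all 4 other scalings (0.01 to 0.07), in the most abundant transcript alone (0.07) and without control replicate 2 (0.02). Col6a4, Col6a5 and Col6a6 stayed below 0.1 FPKM in both group means.

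Among the remaining chains, the short network-forming chain Col8a1 fell from 27.0, 33.4 and 32.0 FPKM to 22.0, 23.2 and 19.1 FPKM (log2 change -0.50, SE 0.10, adjusted p = 0.00323). Its partner Col8a2 was at 14.4 ± 0.47 and 16.1 ± 1.12 FPKM (n = 3 each) and was not called (log2 change 0.15, adjusted p = 0.0777), although it passed under the 4 other scalings (adjusted p from 0.0102 to 0.0408), with sample weights (0.0439) and without Msx1 replicate 2 (0.0378). Col18a1, the parent protein of endostatin, was at 26.8 ± 0.374 and 25.8 ± 0.305 FPKM and was not called (adjusted p = 0.357). Col10a1, a marker of hypertrophic cartilage, was at 0.973 ± 0.153 FPKM in control and rose to 1.69 ± 0.276 FPKM with Msx1 (log2 change 0.44, adjusted p = 0.00674). Col7a1 (anchoring fibrils), Col15a1, Col26a1 and Col28a1 had group means below 0.3 FPKM and were not tested. At the minimum for testing, Col24a1 stood just inside (0.712 FPKM averaged over all libraries) and Col17a1 just outside (0.401 FPKM).

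Chains that share a trimer were compared as ratios of FPKM in each library, for 6 pairs from a list of known partners in which both genes passed the minimum. Col6a1 was 6.81, 6.30 and 7.35 times Col6a3 in control and 13.8, 13.6 and 14.5 times Col6a3 in Msx1 libraries. The shift was 1.04 on the log2 scale. Whether upstream counting or annotation sets the low level of Col6a3 beside Col6a1 was not tested. Col6a1 was 1.86, 1.94 and 1.99 times Col6a2 in control and 1.55, 1.52 and 1.55 times in Msx1 libraries, a shift of -0.32. Col4a1 was 1.39, 1.34 and 1.42 times Col4a2 in control and 1.17, 1.33 and 1.19 times in Msx1 libraries, which differed little (-0.18). Col8a1 to Col8a2 shifted by -0.68 and Col5a1 to Col5a2 by 0.38. Another 3 pairs, not on that list, were added after their values were seen and have no test. Col6a2 was 3.66, 3.25 and 3.70 times Col6a3 in control and 8.90, 8.98 and 9.32 times in Msx1 libraries, a shift of 1.36 that exceeded those of the 6 listed pairs. Col5a1 to Col5a3 shifted by 0.57 and Col5a2 to Col5a3 by 0.20, the latter with overlapping groups.

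The type I pair was the most uneven of the 6 listed pairs in control, and Col6a1 to Col6a3 in Msx1 libraries. Col1a1 stood at 0.057, 0.059 and 0.056 times Col1a2 in control and at 0.101, 0.102 and 0.097 times in Msx1 libraries, a shift of 0.80 on the log2 scale. The known type I molecule holds 2 alpha-1 chains and 1 alpha-2 chain, whereas the FPKM of Col1a1 were far below those of Col1a2 in all 6 libraries. The limit given above for the level of Col1a1 holds for this ratio as well. Each of these genes has a single transcript among the deposited rows. For all 6 pairs the groups did not overlap, and the exact two-sided permutation p was 0.1 (0.1 after adjustment over the 6 pairs), the smallest that 3 against 3 libraries allow.

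**Figure D4:**
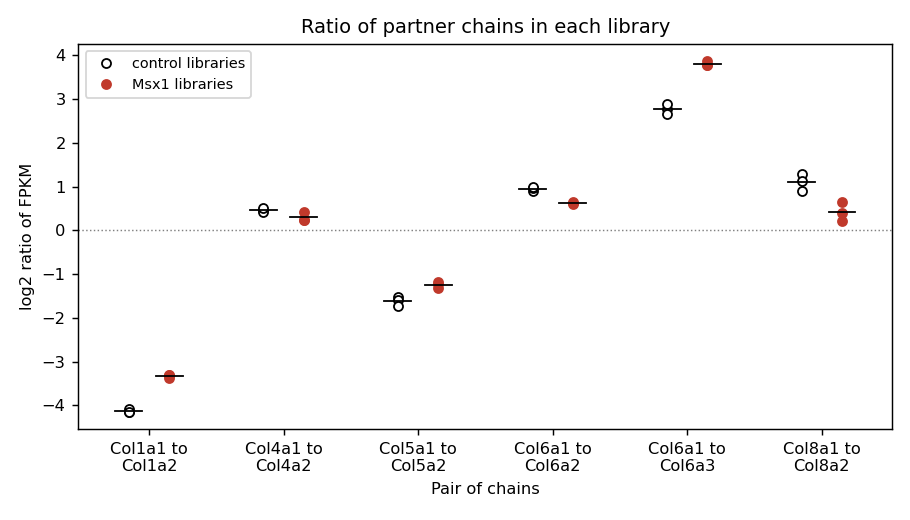
log2 ratio of FPKM between partner chains (vertical axis) for 6 pairs in 3 control libraries (open points) and 3 Msx1 libraries (filled points), with a line at each group mean and a dotted line at equal levels. The ratio of Col6a1 to Col6a3 is higher by 1.04 in Msx1 libraries, and that of Col1a1 to Col1a2 lies below -3 in every library.

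Several collagen genes are neighbours in the genome, with 10 pairs less than 500 kb apart in GRCm38. In 3 of these pairs both genes were called, each time in the same direction. Of all genes tested, 54.4% were called, and neighbouring pairs of other genes were not examined. Whether neighbouring collagen genes move together was therefore not tested. Col4a1 (chromosome 8, 11198423 to 11312889) and Col4a2 (11312805 to 11449287) lie head to head and overlap by 85 bases at their starts, and both rose. Col6a2 and Col6a1 lie on the same strand of chromosome 10 with 85.2 kb between them, and both rose, while Col18a1, 326 kb further, was not called. Col3a1 and Col5a2 lie tail to tail on chromosome 1 with 24.6 kb between them, and both fell. Col4a6 and Col4a5 lie head to head on chromosome X with 1.27 kb between them, and Col4a6 was too low to test. Col23a1 (chromosome 11, 51289679 to 51583925) and Col14a1 (chromosome 15, 55307644 to 55520803) have no collagen gene this near.

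Promoter windows (250 bases before to 50 after the RefSeq start, GRCm38.p6) were at hand for 35 of the 44 genes, 38 windows in all. The genes without a window were Col12a1, Col14a1, Col1a1, Col22a1, Col26a1, Col2a1, Col4a3, Col5a2 and Col9a3. Upstream bases are shown for the most abundant chain of each group, Col3a1 in control and Col6a1 in Msx1 cells, leaving out bases that GENCODE places in an exon. The first is chr1:45311288-45311537 (plus strand) and the second chr10:76726169-76726294 (minus strand). Capitals mark the motif TATAAA.
Col3a1: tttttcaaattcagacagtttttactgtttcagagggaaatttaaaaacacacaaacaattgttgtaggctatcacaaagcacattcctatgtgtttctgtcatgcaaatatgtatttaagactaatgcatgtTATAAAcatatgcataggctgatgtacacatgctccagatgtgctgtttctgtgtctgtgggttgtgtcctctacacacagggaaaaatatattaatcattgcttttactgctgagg
Col6a1: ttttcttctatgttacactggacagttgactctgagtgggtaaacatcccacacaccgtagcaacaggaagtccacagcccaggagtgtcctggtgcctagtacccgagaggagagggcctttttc

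The windows were searched on both strands for TAATTG, a core sequence that homeodomain proteins such as Msx1 are known to bind. It occurred in 3 of the 38 collagen windows (7.89%), against 2628 (8.0%) of 32851 windows of the same length. The 3 windows belonged to Col11a2, Col17a1 and Col28a1, none of which was tested. TATAAA occurred in 13.2% of collagen windows against 13.6% of all, and CCAAT in 34.2% against 37.4%. The motif GGGCGG occurred in 60.5% of collagen windows against 35.7% of all windows. CCAAT and TAATTG can share letters where they overlap. A match describes these letters in this window only.

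In 15 of the 44 genes more than 1 transcript was listed. StringTie, which the submitters' processing notes name, estimates how reads divide among them, so single transcripts are given as values without a test. In Col6a3 the transcript NM_001243008 was at 38.3 ± 2.18 and 40.3 ± 2.42 FPKM (n = 3 each), while NM_001243009 was at 6.12 ± 2.35 in control and 2.81 ± 0.70 FPKM in Msx1 libraries. In Col18a1, whose sum hardly differed, NM_001109991 went from 0.593 ± 0.358 to 2.02 ± 0.404 FPKM and NM_009929 from 26.2 ± 0.505 to 23.8 ± 0.619 FPKM. In Col5a3 the main transcript NM_016919 went from 5.03 ± 0.333 to 2.38 ± 0.522 FPKM, and NM_001317388 from 0.872 ± 0.154 to 1.09 ± 0.324 FPKM. In Col6a2 the transcript NM_146007 made up 93.4% of the gene in control and 93.1% in Msx1 libraries.

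Spread within groups was small for most chains. The median coefficient of variation over the 24 tested chains was 7.31% in control and 4.31% in Msx1 libraries, and the highest were 33.3% for Col9a3 in control and 16.3% for Col10a1 in Msx1 libraries. Control replicate 2 had the highest control value for 18 of the 24 chains, and control replicate 1 the lowest for 13. Msx1 replicate 3 had the lowest Msx1 value for 17. Total FPKM ran the other way in control, at 441835, 409664 and 426319 in replicates 1 to 3, and was 391429, 390439 and 401802 in the Msx1 libraries. Collagen chains held 0.551%, 0.677% and 0.623% of all FPKM in control and 0.747%, 0.748% and 0.70% in Msx1 libraries.

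Genes that make, process, bind or degrade collagen were described from a list of 71, of which 57 were tested. In this list 26 rose, 18 fell and 13 were not called, so 77.2% were called against 54.4% of all genes, and the median change was 0.10. The list was chosen with earlier results of these data known, and its called shares carry that limit. The 26 include Tll1, Tnxb and Comp, which passed the minimum for testing only through their Msx1 libraries. Higher calls were 45.6% of those tested against 22% of all genes, and lower calls were 31.6%, near the 32.4% of all genes. With the 4 other scalings 28 rose and 13 to 18 fell. Genes for enzymes that hydroxylate or glycosylate chains went both ways (5 of 14 higher, 6 lower). The prolyl 4-hydroxylase subunit P4ha1 rose from 57.2 ± 2.04 to 79.8 ± 1.25 FPKM and P4ha2 fell from 31.6 ± 1.19 to 21.6 ± 0.817 FPKM (n = 3 each; adjusted p = 1.02e-04 and 9.37e-05). Colgalt1, a galactosyltransferase for collagen, rose by 0.37. For folding and export, 5 of 9 fell and 0 rose, a called share (55.6%) near that of all genes, though lower calls alone were 32.4% of all genes. The count of 5 became 3 with equal totals without Msx1, and 4 with 1 higher under median-of-ratios scaling. Among the 5 were the COPII coat genes Sec24d (log2 change -0.39) and Sec23a (-0.47) and the chaperone Fkbp7 (-0.38).

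Of the genes for propeptide-cleaving enzymes and their helpers, 5 of 7 rose and 2 fell, against 22% higher and 32.4% lower of all genes. The 5 include Tll1, whose control mean of 0.392 FPKM lay under the minimum, so it was tested only through its Msx1 level. Pcolce, which enhances removal of the C-propeptide, rose from 528 ± 0.965 to 833 ± 10.4 FPKM (adjusted p = 4.45e-05, n = 3 each). The N-proteinase Adamts14 rose by 0.89 and its relative Adamts3 fell by 1.37 on the log2 scale. In crosslinking, 2 of 6 rose (33.3%, against 22% of all genes) and 3 fell (50%, against 32.4%). Lox, the lysyl oxidase that crosslinks fibrils, read 45.5 ± 3.21 FPKM in Msx1 against 441 ± 42.6 FPKM in control libraries (log2 change -3.25, adjusted p = 7.86e-08), whereas Loxl4 (log2 change 1.18) and Loxl3 (0.38) rose.

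Genes for proteins that bind fibrils during assembly mostly rose (7 of 11 higher, 1 lower, against 22% and 32.4% of all genes). The lower one was Matn2, which fell from 46.0 ± 4.59 to 19.3 ± 0.879 FPKM. The small proteoglycan gene Dcn rose from 5.07 ± 1.35 to 89.7 ± 5.51 FPKM, 17.7-fold (log2 change 3.92, adjusted p = 3.26e-07, n = 3 each). Fmod, another small proteoglycan, rose by 1.87, the matricellular gene Thbs2 by 2.59 and Tnxb by 1.08 on the log2 scale. Tnxb and Comp, both among the 7, had control means of 0.229 and 0.472 FPKM, under the minimum. They were tested only through their Msx1 levels, and the count of 7 carries that limit. Of the collagen receptor genes, 5 of 7 rose and 0 fell, against 22% higher and 32.4% lower of all genes. The collagen-binding integrin genes Itga10 and Itga11 rose by 2.37 and 1.85 on the log2 scale (adjusted p = 4.91e-07 and 2.72e-07), to 9.70 ± 0.502 and 23.3 ± 1.01 FPKM, and the uptake receptor Mrc2 rose by 0.78. Among genes for degrading enzymes, Mmp2 (log2 change 0.61) and Mmp14 (0.54) rose and Mmp16 fell by 0.80, with 3 tested. Sample groups did not overlap for any of the pathway genes named here with a change. Nearly all were named for a small adjusted p or a 4-fold change, so this follows largely from the choice. Of all genes tested, 62.3% did not overlap.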

How the data were processed

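The authors deposited 1 table of FPKM with 1 row per RefSeq transcript and 1 column per sample. HISAT2, StringTie and Trimmomatic are the tools, and GRCm38 (mm10) the build, per the submitters' processing notes. Their versions are not stated in what was used here. Per the labels' protocols, Trizol RNA went into NEBNext Ultra libraries, and no strand use is stated. Whether reads of overlapping genes were told apart is therefore not known. Col4a1 and Col4a2 overlap by 85 bases at their starts. Control columns were matched to the control samples by number. Symbols for 38188 of 38468 transcripts came from a RefSeq table and for 161 from GENCODE, and FPKM were summed per gene.

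Read numbers were not used here, so no counting intervals are given. Low values times transcript length fell within 0.1 of a whole multiple of the best step for 37.1% to 42.5% of values per library (18.9% to 19.8% at the median step), so whole reads were not recovered.

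limma 3.58.1 (R 4.3.3) was run on log2(FPKM + 1) with an intensity trend, and tested on simulated data. Named genes were members with a group mean of at least 5 FPKM or a called change of at least 1, the others by range or in short, and up to 3 per pathway class plus called pathway genes of 4-fold or more. Matn2 was named in addition, as the only gene of its class called lower. Members and lists were chosen with earlier results of these data known. The alternatives were another pseudocount, 2 filters, 4 scalings, sample weights, no trend, single transcripts, a replicate block and each library left out.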

Additional observations from a re-analysis of the deposited data

How the results depend on the processing

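Across 17 alternatives the numbers of collagen chains called stayed within 1.5 times of 10 higher and 9 lower. Of 24 tested chains, 17 kept direction and call in every refit that tested them. The exceptions are Col1a1, Col5a1, Col8a2, Col12a1, Col18a1, Col24a1 and Col6a3. Col18a1 (main change -0.05) turned to 0.022 with median-of-ratios scaling, 0.057 with equal totals without Msx1 and 0.058 with equal totals without Msx1 and collagen. Col6a3 (-0.04) turned to 0.038, 0.073 and 0.074 under the same scalings, 0.011 after quantile normalization and 0.074 in its most abundant transcript, and leaving out 1 library gave -0.084 to 0.021. Col24a1 (0.11) turned to -0.0095 in its most abundant transcript. The cause of these changes was not tested. Scaling moved the median of all genes from -0.07 to between -0.03 and 0.03, and the higher share of all calls from 40.4% to between 45.8% and 55.7%. With equal totals without Msx1 and collagen, 11 chains were higher and 8 lower. The summed collagen difference of 0.14 was 0.22 to 0.26 under 3 scalings.

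With the replicate number as a block, 10 chains were higher and 9 lower, and no call of a chain changed. Same-numbered libraries correlated in their deviations at 0.06, 0.23 and 0.04. Libraries of unlike number ran from -0.20 to 0.13, and among them only control replicate 1 with Msx1 replicate 3 (0.13) was positive. Control replicate 1 correlated best with that library. The values lean towards same-numbered libraries but are small, and no label names pairs, so the main fit used none. Without read numbers, the precision of chains below 1 FPKM is not known.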
